A study of Bos taurus with 4 samples.

Results

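The mitochondrial carriers are a family of small proteins of the mitochondrial inner membrane, with a few members in other membranes, each of which exchanges or imports a defined solute. They pass ADP for ATP, phosphate, di- and tricarboxylic acids, amino acids, carnitine esters, cofactors and iron between the cytosol and the matrix. The uncoupling proteins belong to the same family. UCP1 lets protons return to the matrix and so makes heat in brown fat, while UCP3 is found mainly in skeletal muscle and UCP2 in many tissues, with transport roles that are less settled. In muscle the ADP/ATP translocases and the phosphate carrier supply the ATP synthase with its substrates, and they count among the abundant proteins of that membrane.

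The carriers were taken as every non-control probe whose accession led to a bovine symbol of the *slc25a* series or to *ucp1*, *ucp2* or *ucp3*. This gave 75 probes for 37 genes, out of 43653 probes and 11055 named genes on the array. The bovine gene table held 49 such symbols, and 12 of them (*slc25a1*, *slc25a10*, *slc25a13*, *slc25a23*, *slc25a27*, *slc25a28*, *slc25a32*, *slc25a36*, *slc25a43*, *slc25a45*, *slc25a46* and *slc25a47*) had no probe named here. There were 14 genes with 1 probe and 23 with several, up to 5. Of the 75 probes, 69 probes of 36 genes entered the test, which required a signal well above the local background in the same channel on all 4 arrays. The other 6 probes did not reach it, and the probe of *slc25a2*, an ornithine carrier, was the only one whose gene was lost entirely. Among the tested probes 59 were well above background in both channels on every array.

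The tissue was the semitendinosus, a hindlimb muscle, of bulls slaughtered at 15 months of age. RNA of 4 Hereford (HER) bulls, a beef breed, and of 4 Holstein-Friesian (HF) bulls, a dairy breed that served as the reference, was hybridised to 4 dual-colour Agilent bovine arrays, with 1 bull of each breed on an array. No treatment or genetic change was applied to either breed, and the Limousin arrays of the same study were not analysed here. Every array had the same dye orientation, so a dye effect of a probe and a breed effect cannot be told apart. All 10 muscle fibre genes measured as a check of the tissue, such as *acta1*, *ckm* and *des*, were well above background in both channels on every array.

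Signed values are log2 ratios of the Cy5 over the Cy3 signal after loess normalization. By the dye labels Cy5 held HF and Cy3 held HER, so that a negative value would mean a lower signal in HF, but these signs then oppose the study's own tables, and a remark in the labels speaks of swapped dyes. The breed behind each dye is therefore not settled, and "higher" and "lower" refer below to Cy5 against Cy3. Over the 4 arrays the median signal was 129 to 160.5 in Cy5 and 77 to 138 in Cy3, and no spot was saturated. Between arrays, Pearson's r of the log2 ratios lay between 0.332 and 0.618 over the tested probes, whose values are not independent of each other. A probe was called where limma gave a Benjamini-Hochberg adjusted p under 0.05 over all 32606 tested probes.

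Few carrier probes passed. In Cy5, 1 of 69 carrier probes was called higher (1.45%, against 1.97% of all tested probes) and 3 were called lower (4.35%, against 1.35%). With median centring in place of loess the balance of calls turned, to 18 higher (26.1%, against 30.7% of all tested probes) and 1 lower (1.45%, against 2.18%). After loess the higher probe was that of *slc25a33*, a pyrimidine nucleotide carrier, and the lower ones belonged to *slc25a30*, a relative of the uncoupling proteins, to *slc25a15*, the ornithine carrier, and to *slc25a4*, the ADP/ATP translocase of heart and skeletal muscle. The 8 carrier probes that came next had adjusted p values of 0.0516 to 0.0636, and they included both probes of *ucp3* and the brightest probe of *ucp2*. None of the 4 calls was kept when any single array was left out, after which the count was 0 in both directions. The share of all tested probes called then is not given here, so this loss cannot be ascribed to the carriers in particular.

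The study's own criterion is less strict, with no adjustment of p (0.05 or below) and a change of 1.3-fold or more. By this criterion 4 carrier probes were higher (5.8%, against 7.96% of all tested probes) and 11 were lower (15.9%, against 6.48%), and with median centring 24 were higher (34.8%, against 37.4%) and 1 was lower (1.45%, against 3.96%). After loess the lower probes came from 8 genes and the higher ones from 4, and *slc25a6* and *ucp2* had probes on both sides. A negative log2 ratio was found for 45 of 69 carrier probes (65.2%, against 47.6% of all tested probes), with a median of -0.10 against 0.01 over all tested probes. With median centring in place of loess, however, 26 of 69 were negative (37.7%, against 33.5% of all tested probes). The carrier median was then 0.25 against 0.24. All 4 arrays ran one way for 29 carrier probes (42.0%, against 32.7%), of which 22 were lower (31.9%, against 14.5%) and 7 were higher (10.1%, against 18.3%). With each gene at its brightest tested probe, 1 of 36 carrier genes was called higher (2.93% of all named genes) and 1 lower (1.54%). The criterion of the study then passed 2 genes that were higher (10.6% of all named genes) and 5 that were lower (7.18%). At this level all 4 arrays ran one way for 30.6% of carrier genes, against 34.2% of all named genes. Of the 36 carrier genes 3 were higher and 8 lower in this way, against 1921 and 1304 of 9426 named genes.

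**Figure D1:**
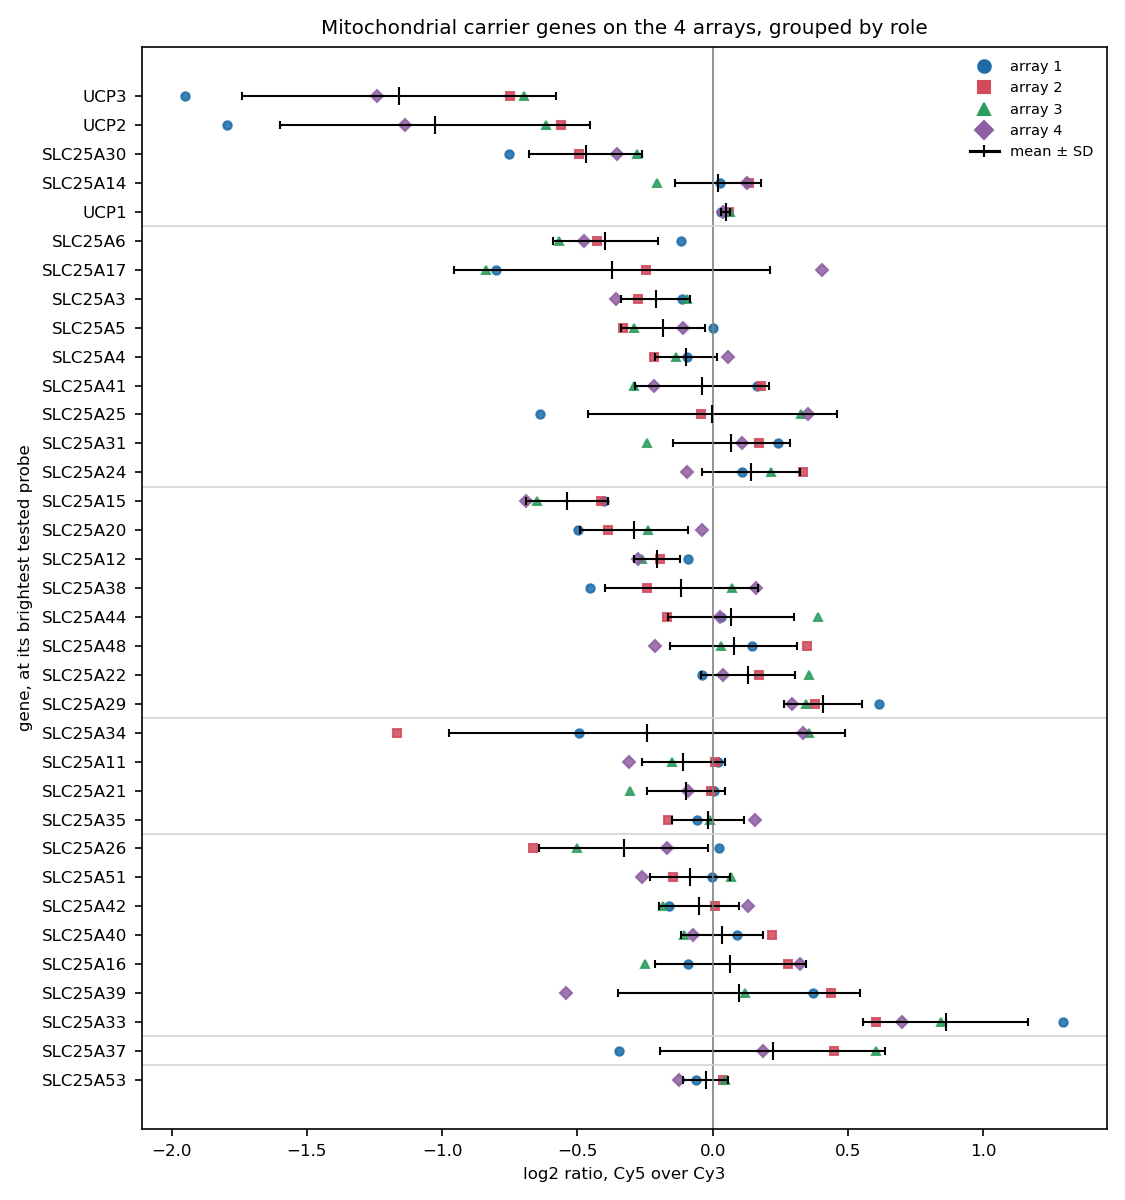
The plot shows the carrier genes named in the text, each at its brightest tested probe (vertical axis, grouped by role) with its Cy5 over Cy3 ratio on the log2 scale along the horizontal axis, a symbol for each of the 4 arrays and a bar for the mean ± SD. UCP3 and UCP2 have the lowest means, at -1.16 and -1.03, SLC25A33 lies farthest to the right at 0.86, and most other genes straddle 0.

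The largest ratios of the family were those of the *ucp3* probes and of the brightest *ucp2* probe. All 4 arrays were negative for *ucp3*, the muscle uncoupling protein, whose brightest probe stood at -1.95, -0.75, -0.70 and -1.24 on arrays 1 to 4. The mean was -1.16 ± 0.58 (SD, n = 4), or 2.23-fold lower, with an adjusted p of 0.0516 in limma, just outside the threshold. The second *ucp3* probe read -1.86, -0.58, -0.59 and -1.41 on the same arrays. Both probes thus ran lowest on arrays 1 and 4. The gene is one of 5 carriers that the study listed in its tables, with *slc25a4*, *slc25a26*, *slc25a33* and *slc25a39*. That list holds genes that changed in the same direction in HER and Limousin bulls against HF. It thus rests in part on these same HER and HF bulls, so it is no independent evidence of direction. A bulk sample cannot tell fewer cells of a type from less RNA per cell, here and in the values that follow.

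On array after array the brightest probe of *ucp2*, the widely expressed uncoupling protein, followed *ucp3* closely. It stood at -1.79, -0.56, -0.61 and -1.14, for a mean of -1.03 ± 0.57 (2.04-fold lower, adjusted p = 0.0597 in limma). Among 32589 other tested probes ranked by their largest difference from the brightest *ucp3* probe on any array, the second *ucp3* probe came first at 0.17 and this *ucp2* probe came next at 0.19. The nearest named probe after these was that of *scn4b*, a sodium channel subunit, at 0.37. The bovine gene table (RefSeq, assembly ARS-UCD2.0) places *ucp2* and *ucp3* next to each other on the chromosome with no other protein-coding gene between them.

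The signals of the separate channels show where the array-to-array spread lay. For the brightest *ucp3* probe the normalized log2 signals in Cy5 were 12.48, 12.82, 12.48 and 12.88, while in Cy3 they were 14.43, 13.57, 13.18 and 14.12. For *ucp2* they were 11.17, 11.47, 11.13 and 11.51 in Cy5 and 12.96, 12.03, 11.75 and 12.65 in Cy3. The Cy5 bulls were close to each other in both genes, the Cy3 bulls of arrays 1 and 4 were the highest, and the channels did not overlap. Among all 69 carrier probes the channels were apart for 17 (24.6%, against 14.1% of all probes), with Cy5 lower in 14 (20.3%, against 6.48% of all probes) and higher in 3 (4.35%, against 7.63%). Several of the lower ones were probes of the same gene, as for *slc25a4*, *slc25a6*, *slc25a51* and *ucp3*. The channel signals were taken after loess, and no such count is given for median centring.

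A second *ucp2* probe ran the other way. Its log2 ratios were 0.77, 0.67, 0.32 and 0.07, a mean of 0.46 ± 0.32 with an adjusted p of 0.111 in limma, and in Cy3 it was well above background on 3 of 4 arrays only. It was positive on every array where the brightest *ucp2* probe was negative, and what sets the probes apart was not tested. With both probes averaged the ratio was -0.29 (adjusted p = 0.224). The direction for *ucp2* thus depends on the probe, whereas that for *ucp3* was the same at both of its probes.

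Adipocyte markers differed among themselves in their order of arrays. The mean log2 ratio of 5 tested adipocyte genes was -0.79, -0.14, -0.12 and -0.76 on arrays 1 to 4. Arrays 1 and 4 were the lowest for the fatty acid binding protein gene *fabp4*, at -2.59, -0.27, -0.49 and -1.42, and for the lipid droplet gene *cidec*, at -1.67, -0.24, 0.0028 and -0.76. The other 3 genes did not share this order, since the lipoprotein lipase gene *lpl* (0.95, -0.30, 0.09 and -1.38) and the leptin gene *lep* (0.15, 0.10, -0.03 and -0.14) were highest on array 1 and the perilipin gene *plin1* (-0.80, 0.02, -0.16 and -0.10) was low on array 1 alone. The summed normalized signal of these 5 genes was 1770 to 6283 in Cy5 and 4167 to 6971 in Cy3, and for *adipoq*, a defining adipocyte gene, no probe was named here. By its mean the list was lowest on arrays 1 and 4, as *ucp2* and *ucp3* were, and the part of fat cells in the uncoupling protein values was not tested. None of the 5 adipocyte genes was called in limma (1 had an unadjusted p under 0.05, against 2666 of 9426 named genes). Among 6 connective tissue genes, the collagen genes *col1a1* and *col3a1* were called lower (against 1.54% of all named genes). Means of -1.34 and -0.77 were found for *col1a2* and *lum*, and positive means of 0.42 and 0.49 for *dcn* and *pdgfra*. The mean over this list was -1.16, -0.09, -1.16 and -0.88. The muscle fibre list was positive on every array by its mean, at 0.33, 0.33, 0.14 and 0.35, with 9 of 10 genes above 0 (against 5120 of 9426 named genes). The exception was *tnnt3*, negative on all 4 arrays at -0.69 ± 0.38 (adjusted p = 0.0636 in limma). Several of the others, such as *acta1* and *myh7*, changed sign between arrays. None of the 10 fibre genes was called in limma (4 had an unadjusted p under 0.05, against 2666 of 9426 named genes). The list means spanned 0.04 to 0.47 over the arrays for macrophage genes, -0.06 to 0.43 for blood genes and -0.51 to 0.30 for endothelial genes.

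For *slc25a30*, a kidney-type relative of the uncoupling proteins, both probes were negative on all 4 arrays. The second probe, the called one, read -0.49, -0.90, -0.79 and -1.12. This was a mean of -0.83 ± 0.26, or 1.77-fold lower (adjusted p = 0.0347 in limma), with no overlap of the channels. The brightest probe was at -0.75, -0.50, -0.28 and -0.35, a mean of -0.47 ± 0.21 that was not called (adjusted p = 0.0636). The probes therefore shared the sign but not the order of the arrays. With median centring the called probe stayed negative at -0.66 while the brightest came to 0.02, below the median of 0.24 over all tested probes.

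No difference was detectable for the remaining relatives. The ratio of *slc25a14*, a brain-type member, was 0.02 ± 0.16 and changed sign between arrays. The probe of *ucp1*, the brown fat protein, was at 0.05 ± 0.02, but its Cy3 signal was well above background on 1 array only and a second *ucp1* probe was not well above it in either channel on any array.

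**Figure D2:**
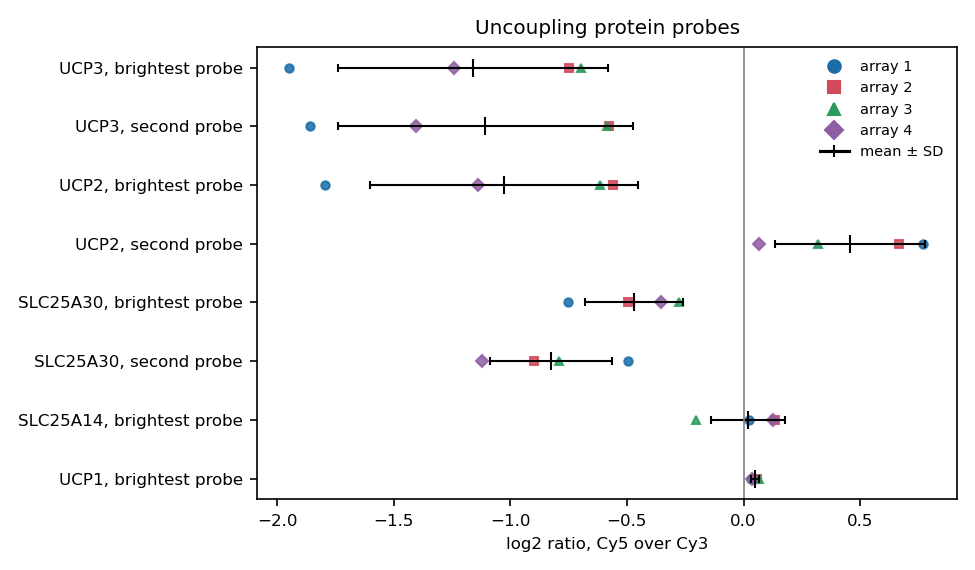
The plot gives every tested probe of the uncoupling proteins and their relatives (vertical axis) with the log2 ratio of Cy5 over Cy3 on each of the 4 arrays (horizontal axis) and a bar for the mean ± SD. Arrays 1 and 4 are the lowest for both UCP3 probes and for the brightest UCP2 probe, and the second UCP2 probe lies above 0 on all 4 arrays, from 0.07 to 0.77.

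Carriers of adenine nucleotides and phosphate had small ratios at their brightest probes, from -0.40 to 0.14 over 9 genes. None of these was called in limma (2 had an unadjusted p under 0.05, against 2666 of 9426 named genes). The heart and muscle translocase gene *slc25a4* was at -0.10, -0.22, -0.14 and 0.06 at its brightest probe, with a mean of -0.10 ± 0.11. Another probe was the called one, at -0.53, -0.40, -0.59 and -0.39, for a mean of -0.48 ± 0.10 (1.39-fold lower, adjusted p = 0.0427 in limma). The remaining *slc25a4* probes had means of -0.32 (adjusted p = 0.0695) and -0.29 (adjusted p = 0.100). All 4 probes thus had a negative mean after loess, but all 4 were positive with median centring, at 0.34 for the called probe and 0.84 for the brightest, so the direction for *slc25a4* rests on the normalization.

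The probes of *slc25a6*, another ADP/ATP translocase, split into pairs of opposite sign. The brightest probe read -0.12, -0.43, -0.57 and -0.47, and a further one read -0.15, -0.61, -0.62 and -0.58. The other pair read 0.25, 0.63, 0.58 and 0.97 at one probe and 0.08, 0.37, 0.29 and 0.59 at the other. Each of the 4 probes kept its sign on all 4 arrays, and array 1 was the nearest to 0 in every one of them. The mean of the positive pair exceeded that of the negative pair by 0.30, 1.02, 1.02 and 1.3, or 0.91 ± 0.43 (SD, n = 4). Adjusted p values were 0.0594 to 0.124 in limma for the 4 probes, so none was called. The translocase genes are close in sequence, and whether probes share transcripts between them was not tested. What sets the pairs apart was not tested either, so values of single probes in this group are uncertain.

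For *slc25a5*, the translocase most used by dividing cells, the means were -0.18, -0.10 and -0.12 at 3 probes, none of which was called. The phosphate carrier gene *slc25a3* had means of -0.21, -0.19 and -0.25 at 3 probes. Its brightest probe was at -0.11, -0.27, -0.10 and -0.36, negative on all 4 arrays, with an adjusted p of 0.195 in limma. With median centring the brightest probes turned to 0.20 for *slc25a5* and 0.60 for *slc25a3*. The median of all tested probes was then 0.24, so *slc25a5* lay below it and *slc25a3* above.

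In the remaining members of the group the arrays lay on both sides of 0. The peroxisomal carrier gene *slc25a17* was at -0.80, -0.25, -0.84 and 0.40, and the ATP-Mg/phosphate carrier gene *slc25a25* at -0.64, -0.04, 0.33 and 0.35, with array 4 positive in both. Means of 0.14, -0.04 and 0.07 were found for *slc25a24* and *slc25a41*, carriers of the same ATP-Mg/phosphate type, and for *slc25a31*, the translocase of the testis.

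**Figure D3:**
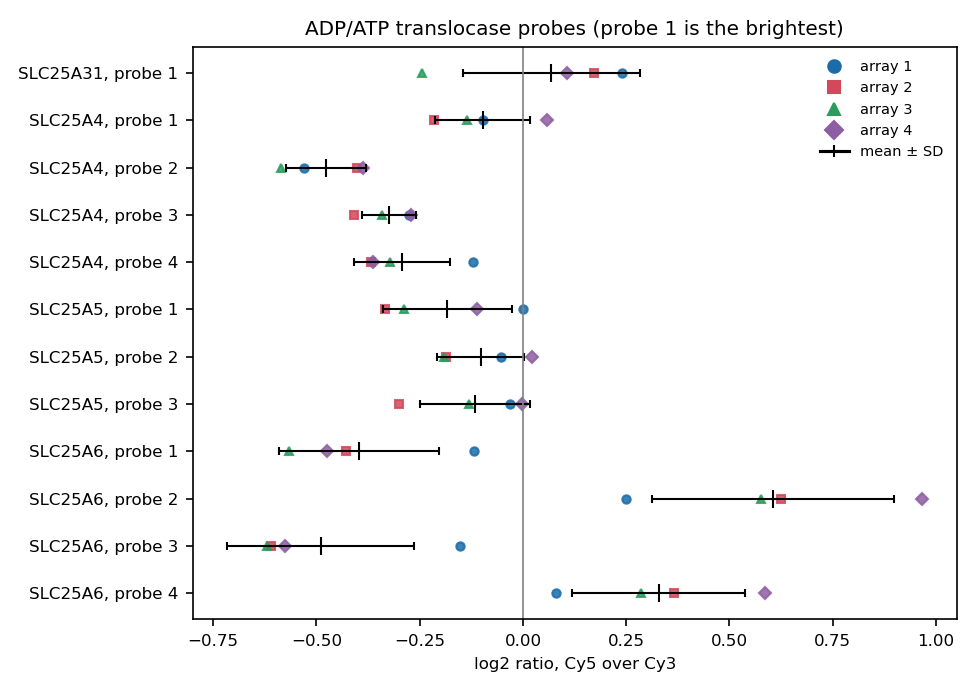
The plot gives every tested probe of the ADP/ATP translocase genes (vertical axis, probe 1 of a gene being its brightest) with the log2 ratio of Cy5 over Cy3 on each of the 4 arrays (horizontal axis) and a bar for the mean ± SD. The SLC25A4 and SLC25A5 probes have negative means down to -0.48, while the SLC25A6 probes form a negative pair and a positive pair whose means lie 0.91 apart.

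Among the carriers of amino acids and carnitine, *slc25a15* was lower. This gene encodes the carrier that brings ornithine into the matrix for the urea cycle and for polyamine and proline metabolism. Its brightest probe was at -0.40, -0.41, -0.65 and -0.69, for a mean of -0.54 ± 0.15 (1.45-fold lower, adjusted p = 0.0428 in limma). All 4 arrays were negative, although the channels overlapped because the level of the probe varied between arrays. The second probe was also negative on all 4 arrays, at -0.23 ± 0.21 (adjusted p = 0.246). With median centring the mean of the brightest probe was -0.30 and the call was lost (adjusted p = 0.167, in a range of 0.0350 to 0.184 over 13 alternatives).

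The basic amino acid carrier gene *slc25a29* pointed the other way in every array. It stood at 0.62, 0.38, 0.35 and 0.29, a mean of 0.41 ± 0.14 (1.33-fold higher) with an adjusted p of 0.0611 in limma, and its channels did not overlap. The carnitine/acylcarnitine carrier gene *slc25a20*, needed for the entry of long-chain fatty acids into oxidation, was at -0.50, -0.39, -0.24 and -0.04 (-0.29 ± 0.20, adjusted p = 0.147). The aspartate/glutamate carrier gene *slc25a12*, part of the malate-aspartate shuttle, was at -0.09, -0.19, -0.26 and -0.28 (-0.21 ± 0.08, adjusted p = 0.172). Both kept a negative sign on all 4 arrays without being called, and both were positive with median centring, at 0.40 and 0.43.

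Ratios near 0 were found for the glycine carrier gene *slc25a38* (-0.12 ± 0.28), for *slc25a44* (0.07 ± 0.23), for the glutamate carrier gene *slc25a22* (0.13 ± 0.17) and for *slc25a48* (0.08 ± 0.23). For *slc25a22* the Cy3 signal was well above background on 2 arrays and for *slc25a48* on 1 array.

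No di- or tricarboxylate carrier of the 4 measured was called in limma at the brightest probe. Of these 0 had an unadjusted p under 0.05, against 2666 of 9426 named genes. The 2-oxoglutarate/malate carrier gene *slc25a11* had means of -0.11 and -0.18 at its probes, and the oxodicarboxylate carrier gene *slc25a21* was at -0.10 ± 0.14. A wide spread was found for *slc25a34*, a carrier with no settled substrate, whose brightest probe was at -0.50, -1.17, 0.36 and 0.33. Its second probe was at 0.33, -0.05, 0.02 and 0.44, so the order of the arrays differed between its probes. Its relative *slc25a35* was at -0.02 ± 0.13.

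The cofactor and nucleotide carriers held the family's only higher call. The gene *slc25a33* encodes a carrier of pyrimidine nucleotides that serve mitochondrial DNA and RNA synthesis. Its only probe stood at 1.3, 0.60, 0.85 and 0.70, a mean of 0.86 ± 0.31 (1.82-fold higher, adjusted p = 0.0383 in limma). Normalized log2 signals were 9.54 to 10.59 in Cy5 and 8.84 to 9.49 in Cy3, so the channels did not overlap. The ratio was larger with median centring, at 1.42. Without any single array the adjusted p was 0.0595 to 0.111, and the probe took its name from the study's own supplement, because the gene table does not hold its accession.

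The other cofactor carriers were not called. The S-adenosylmethionine carrier gene *slc25a26*, which feeds methylation in the matrix, was at 0.02, -0.66, -0.50 and -0.17 at its brightest probe (adjusted p = 0.199). A second probe was negative on all 4 arrays (-0.37 ± 0.17, adjusted p = 0.0810) and the remaining one positive on all 4 (0.08 ± 0.07). The glutathione carrier gene *slc25a39* had 5 tested probes with means of 0.10, -0.22, -0.38, -0.21 and -0.10, the brightest being the positive one at 0.37, 0.44, 0.12 and -0.54. All 5 probes were negative on array 4 without sharing the sign of the mean.

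The NAD carrier gene *slc25a51* had negative means at all 3 probes, at -0.09, -0.31 and -0.44. The last of these was at -0.35, -0.33, -0.37 and -0.71 (adjusted p = 0.0620), with array 4 apart from the rest. Means between -0.05 and 0.06 were found for *slc25a16* and *slc25a42*, both linked to coenzyme A, and for *slc25a40*, a relative of *slc25a39*. The iron carrier gene *slc25a37* (mitoferrin) was at -0.35, 0.45, 0.60 and 0.19, with array 1 on the other side of 0, and *slc25a53*, a carrier with no settled substrate, was at -0.03 ± 0.08.

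Several probes of a gene did not always run one way. Of 18 genes with several tested probes, 9 had all their means on one side of 0 and 9 had means on both sides. The split was widest for *ucp2* and *slc25a6*, as given above.

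**Figure D4:**
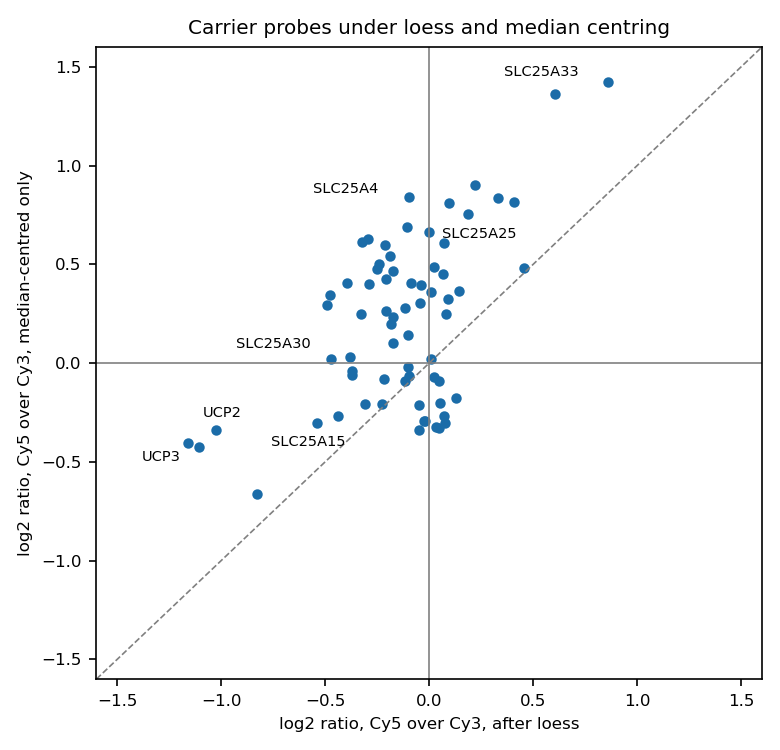
The plot sets the log2 ratio (Cy5 over Cy3) of each of the 69 tested carrier probes after loess (horizontal axis) against its value under median centring alone (vertical axis), with the dashed line marking equal values and brightest probes of some genes named. Most points lie above the line. After loess 45 probes are negative (65.2%, against 47.6% of all tested probes), and with centring 26 are (37.7%, against 33.5%). UCP2, UCP3 and SLC25A15 stay negative while SLC25A4 and SLC25A30 turn positive.

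Genes that work with the carriers were described from lists of the same kind. Of 56 such genes 50 were measured, and at their brightest probes 1 was called higher (against 2.93% of all named genes) and 2 were called lower (against 1.54%), with a median log2 ratio of -0.06. The higher gene was *vdac3*, a channel of the outer mitochondrial membrane, at 0.43, 0.46, 0.59 and 0.44 (0.48 ± 0.08, adjusted p = 0.0419 in limma). All 3 of its probes were called, at 0.48, 0.55 and 0.59. It was the only 1 of 5 channel and insertase genes with an unadjusted p under 0.05 in limma, against 2666 of 9426 named genes. The ratio of *vdac2* was 0.19 ± 0.22.

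Of the 13 genes that import carriers into the inner membrane, 1 was called lower (against 1.54% of all named genes). This was *timm9*, a chaperone of the intermembrane space, at -0.52, -0.33, -0.69 and -0.60 (-0.53 ± 0.15, adjusted p = 0.0433 in limma). With median centring *timm9* came to 0.04, below the median of 0.24 over all tested probes. The receptor gene *tomm20* was at -0.31 ± 0.21 and was not called.

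Among 7 measured transcriptional regulators of mitochondrial genes, *esrra*, the oestrogen-related receptor alpha, was called lower (against 1.54% of all named genes). It stood at -0.58, -1.66, -0.95 and -0.81 (-1.0 ± 0.47, adjusted p = 0.0486 in limma). Its second probe was at -0.68 ± 0.35 (adjusted p = 0.0602), and with median centring the brightest was at -0.35 and no longer called. Its coactivator gene *ppargc1a*, named here after its values were seen, was at 0.38, -1.88, -1.23 and -1.73 (-1.11 ± 1.04, adjusted p = 0.142). Array 1 was positive for *ppargc1a* and nearest to 0 for *esrra*, while the brightest *ucp2* and *ucp3* probes were lowest on arrays 1 and 4. On array 4 *ppargc1a* was at -1.73 and the brightest *ucp3* probe at -1.24. A link between these regulators and the carriers was not tested. The mitochondrial transcription factor gene *tfam* was at -0.28 ± 0.17 and not called. Without any single array the brightest probes of *vdac3*, *timm9* and *esrra* were no longer called (adjusted p from 0.0659 to 0.134).

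The remaining lists held no call. At an unadjusted p under 0.05 in limma stood 2 of 6 genes of adenine nucleotide exchange, 1 of 4 malate-aspartate shuttle enzymes and 2 of 5 sideroflexins. No pyruvate carrier or carnitine acyltransferase gene did. Over all named genes 2666 of 9426 were under it, so these counts set no list apart. The 6 genes of adenine nucleotide exchange included the mitochondrial creatine kinase gene *ckmt2* at -0.48 ± 0.34 and the adenylate kinase gene *ak4* at 0.45 ± 0.28. In the malate-aspartate shuttle *mdh2* was positive on all 4 arrays (0.36 ± 0.16, adjusted p = 0.0828) and *got2* was at -0.10 ± 0.30. The pyruvate carrier genes *mpc1* and *mpc2* were at 0.31 ± 0.41 and -0.31 ± 0.50. Of the carnitine acyltransferases, *cpt2* was at -0.15 ± 0.14 and *crat* at -0.13 ± 0.27, *micu2* of the calcium uniporter at -0.28 ± 0.15, and of the sideroflexins *sfxn4* at -0.31 ± 0.21 and *sfxn5* at 0.35 ± 0.27.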

How the data were processed

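Semitendinosus RNA of 4 HER and 4 HF bulls was measured on 4 dual-colour arrays, called replicates 1 to 4, that lay on the same slide, so there was no batch to set as a block. Deposited intensity values came from Agilent Feature Extraction 10.7.3.1. As stated per the file headers the median spot signals and local backgrounds were uncorrected, and the processed signals had been background-subtracted, spatially detrended and dye-normalized (linear and lowess). The log10 values in the deposited series table equalled the scanner's log10 ratios of Cy5 over Cy3 (largest difference 0, median 0 on every array). GeneSpring was used for statistics by the authors, and their normalization is not given in the sources used here.

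Background was corrected by normexp (offset 50), loess was run within each array without weight on control spots, and replicate spots of a probe were averaged after removal of 7 to 14 outlier spots per array. Probes well above background on all 4 arrays in the same channel, with values on at least 3, were tested with limma 3.58.1 (R 4.3.3, statmod 1.5.0, the data.table package, version 1.17.8), two-sided, against 0. Signals of separate channels were taken after Aquantile scaling. The procedure was tested on simulated data.

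Probes were named through their accession in a RefSeq gene list (23492 probes) or, for 1 carrier probe, through the study's supplement. A gene was represented by its brightest tested probe. Named were the carriers of energy and iron transfer in muscle, those in the study's tables, those with a called probe, 8 more of smallest p, and of each partner list the called genes and up to 2 of smallest p, while the remaining carriers are given by value. Individual values of 1 carrier and 1 partner gene are not reported here. The members, lists and rules were chosen with earlier results of these data known. The labels state biological replicates. Alternatives covered background correction, normalization, filters, variance model, test, probe choice and leaving out each array. Arrays give no counts, so their number limits the precision.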

Additional observations from a re-analysis of the deposited data

Results flagged for a closer look

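A single array stood apart at 2 of 87 probes examined with Dixon's test, which flags about 1 in 20 groups by chance. At the further negative probe of *slc25a6* array 1 was the highest at -0.15, with the other arrays between -0.62 and -0.58 (Dixon ratio 0.905). At the most negative probe of *slc25a51* array 4 was the lowest at -0.71, with the others between -0.37 and -0.33 (Dixon ratio 0.895). The cause was not tested for either.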

How the results depend on the processing

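Carrier probes called higher and lower numbered 1 and 3. With median centring they were 18 and 1 (24 and 1 by the study's criterion, against 4 and 11), with the separate-channel fit 4 and 10, with plain subtraction and with an intensity trend 1 and 5 each, and with the methods' t-test 0 and 0 (3 and 10 by the study's criterion). Leaving out each array gave 0 in both directions in limma, and 3 to 4 higher and 9 to 12 lower by the study's criterion. The cause of these shifts was not tested. Of these alternatives only median centring has the share of all tested probes given above. The other counts thus do not tell a shift of the carriers from one of the whole array. Median centring moved the median of the tested probes to 0.24. With it signs reversed at the brightest probe of *slc25a11* (0.69), *slc25a12* (0.43), *slc25a20* (0.40), *slc25a22* (-0.17), *slc25a25* (0.67), *slc25a26* (0.25), *slc25a3* (0.60) and *slc25a30* (0.0215). The same held for *slc25a34* (0.50), *slc25a38* (0.28), *slc25a4* (0.84, and 0.34 at the called probe), *slc25a48* (-0.30), *slc25a5* (0.20), *slc25a51* (0.405) and *slc25a6* (0.40, and 0.29 at the other negative probe). It also held for further probes, among them those of *slc25a39* at 0.0307 and 0.26. The brightest probes of *ucp1* (-0.33), *slc25a14* (-0.0693), *slc25a31* (-0.27), *slc25a40* (-0.32) and *slc25a41* (0.40) reversed as well. Among partner genes this was so for *ckmt2* (0.40), *cpt2* (0.43), *crat* (0.64), *got2* (0.76), *micu2* (0.38), *mpc2* (0.41), *sfxn4* (0.29), *tfam* (0.0882), *timm9* (0.0448) and *tomm20* (0.39). Reversal is counted against 0. The brightest probes of *slc25a5*, *slc25a30*, *tfam* and *timm9* and the *slc25a39* probe at 0.0307 still lay below the median of 0.24. Leaving out each array took *slc25a25* from -0.12 to 0.21 (positive without replicate 1 or 2), and without replicate 2 the sign also turned for *slc25a34* (-0.44 to 0.0648), *slc25a39* (-0.0173 to 0.31) and *slc25a48* (-0.0126 to 0.17). With all probes of a gene averaged, *slc25a25* was at 0.0035, *slc25a39* at -0.16 and *slc25a6* at 0.0116, while *ucp2* shrank to -0.29 without a change of sign. The value of *ucp3* stayed negative in all 13 alternatives at its brightest probe, from -1.31 to -0.40, and was called in 5 of them, with adjusted p values of 0.0188 to 0.237. That of the brightest *ucp2* probe also stayed negative in these 13, from -1.18 to -0.34, and was called in 2. The second *ucp2* probe stayed positive in its 12 alternatives, from 0.35 to 1.3, and was called higher in 2. Calls were thus gained in both directions for *ucp2*. The ratio within an array pairs its HER and HF bull, so the test is itself paired and no further replicate block was fitted.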
